A study of Mus musculus with 8 samples.

Results

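The glucocorticoid and corticotropin-releasing hormone (CRH) stress axis was followed by 10 genes in BTBR and B6 hippocampus. Limma called none of their tested probes between the strains after correction over the whole array. The rank product, the method of the study rerun here, called Hsd11b1, but it is not a test against the spread between mice. The genes were the receptors Nr3c1 and Nr3c2, the enzyme Hsd11b1, the hormone-induced genes Fkbp5, Sgk1 and Tsc22d3, and the CRH system genes Crh, Crhr1, Crhr2 and Crhbp. Every non-control probe that carries one of these 10 names on the array was taken, which gave 20 of 41174 probes for 9 of the 10 genes. No probe carried the name Crh, so the hormone itself was not measured here. Of the 20 probes, 15 entered the test, 2 were too dim and 3 had a spot with an outlier flag on 1 array.

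Corticosterone, the main glucocorticoid of the mouse, enters the brain and binds a pair of nuclear receptors that regulate transcription, and the hippocampus is rich in both. CRH acts on its own membrane receptors and starts the hormonal cascade that leads to corticosterone release, while local enzymes and chaperones set how much hormone a cell senses. Genes such as Fkbp5, Sgk1 and Tsc22d3 are transcribed when the glucocorticoid receptor is active and are widely used as a readout of that activity.

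The BTBR mice are of the inbred strain BTBR T+ Itpr3tf/J, a strain used as a model of autism whose brain lacks the corpus callosum and holds few of the fibers that join the hippocampi of both sides. The B6 mice are wild-type C57BL/6J. All were untreated males aged 5 months, kept in standard cages, and RNA of the whole hippocampus of 4 mice per strain was hybridized to 1-color arrays, 1 mouse per array. The 2 strains are separate inbred lines that differ across the genome, so no difference below can be tied to a single allele. Neither the hour of dissection nor the level of circulating corticosterone is given in the sources used here.

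Values are log2 intensities after background subtraction and quantile normalization across the 8 arrays, and a difference is the BTBR mean minus the B6 mean on that scale. Replicates 1 and 2 of both strains were on slide 1 and replicates 3 and 4 on slide 2. Between 56.8% and 71.9% of the probes were well above background on an array. Levels of different probes are not comparable on this platform, so each probe was tested only against itself in other mice. The summed signals of lists add over different probes and are weighted to the brightest of them. Of 27981 probes tested with limma, 7.61% had an adjusted p under 0.05 (3.31% higher and 4.30% lower in BTBR).

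Markers of neighboring tissues stood apart in some mice. The mean log2 level over 7 thalamus markers was 13.37 in BTBR 1 and between 10.48 and 11.18 in the other 7 mice. Over 6 striatum markers it was 13.47 in BTBR 2, 11.95 in B6 2 and 11.43 in BTBR 1, against 9.75 to 10.12 in the other 5 mice. Choroid plexus markers were highest in BTBR 1 and BTBR 2. In bulk tissue, fewer cells of a type and less RNA per cell cannot be told apart. The values of the stress axis genes that were farthest out in BTBR 1 or BTBR 2 are given with and without each of those mice. They were left out 1 at a time, so the other mouse stayed in. Both were on slide 1, and only a difference within slide 2 holds neither.

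The sequences below help to read the results. The first is the promoter of Sgk1, because it holds the textbook binding element of the glucocorticoid receptor. RefSeq promoters of GRCm38.p6, which run from 250 bases before to 50 bases after a start, were found for 8 of the 10 genes, 15 windows in all, 6 of them of Sgk1. The element is an inverted repeat of AGAACA, that is AGAACA, any 3 bases and its reverse complement TGTTCT, which reads the same on both strands. It was present in 1 of the 15 windows and in 3 of 32851 promoters (0.00913%). The looser inverted repeat of GNACA with TGTNC, which includes it, was found in the same Sgk1 window alone and in 0.475% of all promoters. The match lies 189 to 175 bases before the start at chr10:21993640-21993939, plus strand, and is in capitals. It is a description of the letters in this window and not a measured binding site.
Sgk1 promoter: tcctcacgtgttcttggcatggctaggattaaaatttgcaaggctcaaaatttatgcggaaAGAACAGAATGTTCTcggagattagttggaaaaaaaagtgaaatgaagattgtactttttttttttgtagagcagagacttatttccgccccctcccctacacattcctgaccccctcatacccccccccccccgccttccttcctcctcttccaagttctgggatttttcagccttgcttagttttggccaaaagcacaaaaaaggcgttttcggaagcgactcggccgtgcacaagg

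The second set is the probes of the genes whose strain means stood farthest apart among the 15 tested probes, Hsd11b1, Crhr2 and Tsc22d3. Each is shown by its first 30 of 60 bases, 5′ to 3′, in lower case because no part is singled out, with mm9 coordinates from the array files. An array reads a gene through such a stretch only, and sequence differences between BTBR and the reference under the probes were not analysed here.
Hsd11b1 probe, chr1:195048169-195048228, minus strand: aaggacatgtttgtaagtaactaggaactc
Crhr2 probe, chr6:55040093-55040152, minus strand: ttctcttccattcctctgtccctggagcag
Tsc22d3 probe 1, chrX:137074393-137074452, minus strand: gtgctgactacatagaatggggttgagaga
Tsc22d3 probe 2, chrX:137074267-137074327, minus strand: ttcttttttaagttcttgtggggaaacttt
Tsc22d3 probe 3, chrX:137074951-137075010, minus strand: atgactgttcctatgaagaagccacttgtg

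The third set is a pair of Nr3c2 probes that read neighboring stretches of 1 transcript and whose values differed in how far BTBR 1 and BTBR 2 lay from the rest. Both are whole 60-base probes from the plus strand.
Nr3c2 probe 1, chr8:79432389-79432448: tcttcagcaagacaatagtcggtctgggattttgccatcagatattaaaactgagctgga
Nr3c2 probe 2, chr8:79432928-79432987: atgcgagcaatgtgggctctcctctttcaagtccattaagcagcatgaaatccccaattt

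**Figure D1:**
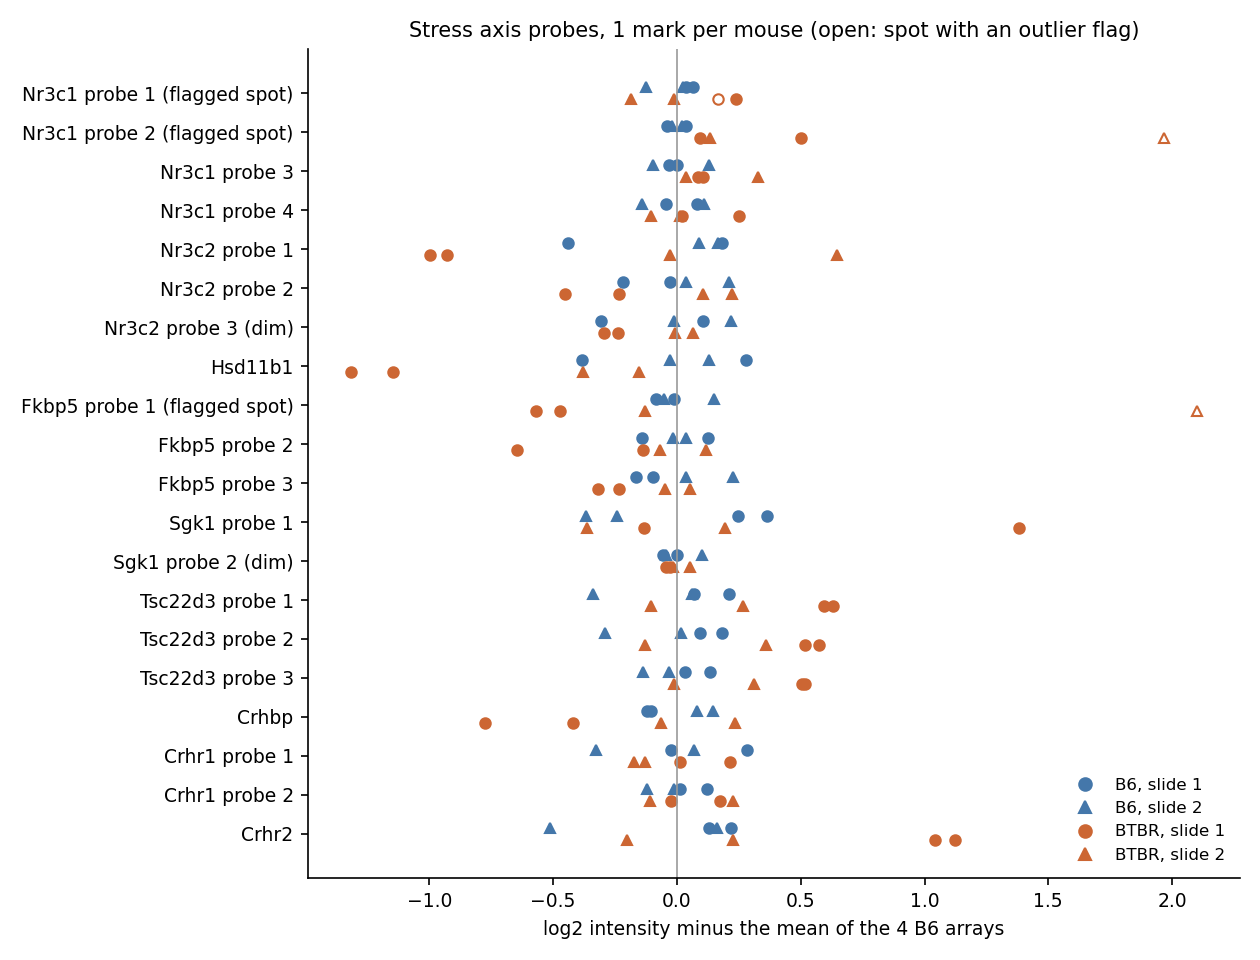
Log2 intensity of each of the 20 stress axis probes in each mouse, minus the mean of the 4 B6 mice for that probe (x axis, log2 units); blue marks are B6, orange marks BTBR, circles slide 1, triangles slide 2, and open marks spots with an outlier flag. The circles of BTBR 1 and BTBR 2 lie far left at Hsd11b1 and Nr3c2 probe 1 and far right at Crhr2, and the open triangles at Nr3c1 probe 2 and Fkbp5 probe 1 are single spots of BTBR 3.

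Across the 15 tested probes, limma called 0 at an adjusted p under 0.05, where 7.61% of all probes were called. At an unadjusted p under 0.05 there were 2 (Hsd11b1 and Tsc22d3 probe 3), against 18.5% of all probes. With the slide as a block limma called 0 as well, against 8.32% of all probes. The rank product, the method of the study rerun here on these values, called 1, Hsd11b1, against 3.95% of all probes. It permutes probes within arrays, so its call is not set against the spread between mice. In none of the 15 did the arrays of the strains separate without overlap, as they did at 14.2% of all probes. The probes were higher in BTBR at 8 and lower at 7, with a median difference of 0.045, against 0.011 over all probes. Their differences were larger in size than usual (median 0.26 against 0.10, regardless of sign), and so were their standard errors (median 0.15 against 0.09), which ran from 0.083 to 0.36.

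The glucocorticoid receptor Nr3c1 is the low-affinity receptor that responds to stress levels of hormone, and it has 4 probes (NM_008173). Probe 3 (A_52_P254174) read 9.30, 9.27, 9.43 and 9.20 in B6 mice 1 to 4 and 9.38, 9.40, 9.63 and 9.34 in BTBR mice 1 to 4. The BTBR values reached slightly higher, and the strains overlapped. The difference was 0.14 (95% interval -0.05 to 0.33, adjusted p = 0.442 by limma, exact permutation p = 0.143), and 0.075 without BTBR 3. At probe 4 (A_51_P355693), which was well above background in 3 of 4 B6 and 4 of 4 BTBR mice, the B6 values were 8.26, 8.39, 8.41 and 8.16 and the BTBR values 8.55, 8.33, 8.20 and 8.32. BTBR 1 was above the B6 range and the other BTBR mice lay within it, with a difference of 0.045 (interval -0.17 to 0.25, adjusted p = 0.858).

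Both other Nr3c1 probes carried an outlier flag on 1 BTBR array and stayed out of the test. Probe 1 (A_52_P138090) read 13.07, 13.09, 13.05 and 12.90 in B6 and 13.27, 13.19, 12.84 and 13.02 in BTBR, with the flag on BTBR 2. The BTBR values lay on both sides of the B6 values, and without the flagged spot the difference was 0.014 (adjusted p = 0.964 by limma). Probe 2 (A_52_P63106) read 11.11, 11.19, 11.17 and 11.13 in B6 and 11.65, 11.25, 13.12 and 11.29 in BTBR, with the flag on BTBR 3 at 13.12. Here all BTBR mice were above all B6 mice, and the exact permutation p of 0.0286 is the smallest that 4 against 4 mice can give. With the flagged spot left out the difference was 0.24 ± 0.11 (SE, 4 B6 and 3 BTBR mice), with an adjusted p of 0.270 by limma, and with it 0.67 with an adjusted p of 0.391.

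The mineralocorticoid receptor Nr3c2 binds corticosterone with high affinity and is occupied at resting hormone levels. Its probe 1 (A_51_P377914, NM_001083906) read 9.46, 8.84, 9.45 and 9.37 in B6 and 8.28, 8.35, 9.93 and 9.25 in BTBR. BTBR 1 and BTBR 2 were the lowest of the 8 mice and BTBR 3 the highest, so the strains overlapped. The difference was -0.33 (interval -1.12 to 0.47, adjusted p = 0.698 by limma), with -0.83 within slide 1 and 0.18 within slide 2. This gap between slides had an unadjusted p of 0.026 and an adjusted p of 0.483 by limma. Single mice moved the value from -0.10 (without BTBR 1) and -0.13 (without BTBR 2) to -0.65 (without BTBR 3). The means of the dentate and CA1 markers, given below with Hsd11b1, were also lowest in BTBR 1 and BTBR 2, and the part of these cells in the Nr3c2 values was not tested.

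Probe 2 of Nr3c2 (A_52_P378137) spread less, with 9.02, 8.83, 9.09 and 9.26 in B6 and 8.60, 8.82, 9.27 and 9.16 in BTBR. BTBR 1 was again the lowest, and the strain difference was -0.089 (interval -0.44 to 0.26, adjusted p = 0.828). Leaving out BTBR 1 turned it to 0.032. Probe 3 (A_52_P264543) was well above background in 2 B6 mice and 1 BTBR mouse and was not tested, with values between 7.73 and 8.26 in B6 and between 7.75 and 8.11 in BTBR.

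Hsd11b1 encodes the enzyme that regenerates active corticosterone from its inert 11-keto form inside cells. Its only probe (A_51_P127297, NM_008288) read 14.76, 14.10, 14.46 and 14.62 in B6 and 13.34, 13.17, 14.33 and 14.10 in BTBR. BTBR 1 and BTBR 2 were below every B6 mouse, while BTBR 3 and BTBR 4 lay within the B6 range. The means were 14.48 ± 0.29 in B6 and 13.73 ± 0.57 in BTBR (SD, n = 4 each). The difference of -0.75 ± 0.27 (SE, interval -1.36 to -0.14), or 0.595 of the B6 level on this scale, had an unadjusted p of 0.0209 and an adjusted p of 0.159 by limma, and an exact permutation p of 0.0857.

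The sign was negative in all 24 alternative settings, which ran from -1.18 to -0.32, and the size differed by slide. Within slide 1 the difference was -1.18 (adjusted p = 0.0187 by limma), and within slide 2 it was -0.32 (adjusted p = 0.656). The test of the gap between slides gave an unadjusted p of 0.0226 and an adjusted p of 0.474. Without BTBR 1 the strain difference was -0.62 (adjusted p = 0.333) and without BTBR 2 it was -0.56 (adjusted p = 0.311).

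Markers of dentate granule cells were read beside Hsd11b1. The mean over the 6 markers (Prox1, Dsp, C1ql2, Tdo2, Lct and Pdzd2) was 12.22, 11.08, 11.63 and 11.87 in B6 and 10.48, 9.72, 11.37 and 11.48 in BTBR. BTBR 1 and BTBR 2 were the lowest here too, and B6 2 was the lowest B6 mouse in both. The 6 markers were all tested, 5 were lower in BTBR and 0 were called, and their median difference was -0.73. Pdzd2 was the exception, with its highest value in BTBR 2 (12.86). Without BTBR 2 the differences were -0.27 (Prox1), -0.35 (Dsp), -1.45 (C1ql2), -0.42 (Tdo2), -0.88 (Lct) and -0.18 (Pdzd2). The summed signal of the 6 was 16446 to 42753 in B6 and 10718 to 27409 in BTBR. None was at background, with Tdo2 well above it in 3 of 4 BTBR mice and the others on every array. The mean over 5 CA1 markers was 12.41 to 12.86 in B6 and 11.58, 11.71, 12.93 and 12.95 in BTBR 1 to 4, with 4 of the 5 lower in BTBR and 0 called. Their summed signal was 56485 to 71128 in B6 and 38443, 57626, 112662 and 85426 in BTBR 1 to 4, and 1 of them, Wfs1, was higher in BTBR (0.71, adjusted p = 0.0959 by limma). The part of these cells in the Hsd11b1 difference was not tested.

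**Figure D2:**
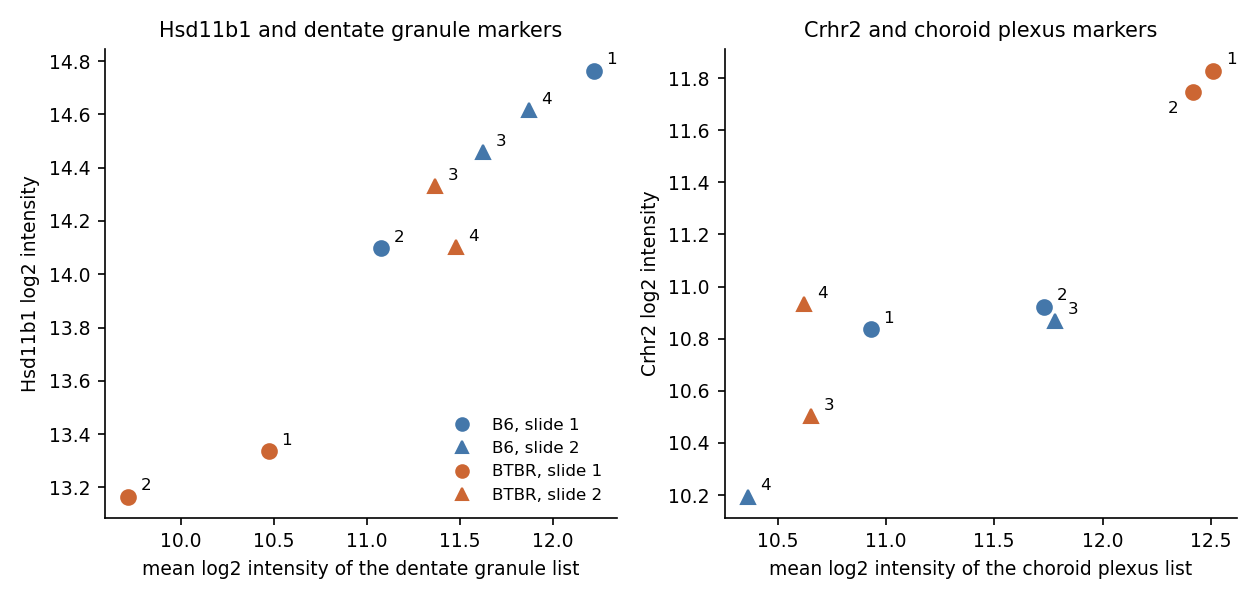
Log2 intensity of Hsd11b1 against the mean log2 intensity of the 6 dentate granule markers (left) and of Crhr2 against the mean of the 8 choroid plexus markers (right), 1 mark per mouse labeled with its replicate number, blue for B6, orange for BTBR, circles for slide 1 and triangles for slide 2. BTBR 1 and BTBR 2 lie lowest on both axes at left, with Hsd11b1 at 13.34 and 13.17, and highest on both axes at right, with Crhr2 at 11.83 and 11.75.

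Fkbp5 encodes a cochaperone of the glucocorticoid receptor that lowers its affinity for hormone and is itself induced by it. At probe 2 (A_52_P481493, NM_010220) the B6 values were 9.46, 9.19, 9.32 and 9.37 and the BTBR values 8.69, 9.20, 9.45 and 9.27. Only BTBR 1 lay below the B6 range, and the difference was -0.18 (interval -0.52 to 0.16, adjusted p = 0.602 by limma), or -0.029 without BTBR 1. At probe 3 (A_52_P337899) the B6 values were 8.64, 8.57, 8.78 and 8.97 and the BTBR values 8.42, 8.51, 8.69 and 8.80. The strains overlapped with a difference of -0.14 (interval -0.39 to 0.12, adjusted p = 0.598), with -0.14 on slide 1 and -0.13 on slide 2. It was -0.062 without B6 4 and -0.076 without BTBR 1.

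Probe 1 of Fkbp5 (A_51_P383689) had a flagged spot on BTBR 3. It read 9.64, 9.57, 9.60 and 9.80 in B6 and 9.08, 9.18, 11.75 and 9.53 in BTBR. Apart from the flagged 11.75, every BTBR value was below every B6 value. Without that spot the difference was -0.39 ± 0.12 (SE, 4 B6 and 3 BTBR mice), with an unadjusted p of 0.0108 and an adjusted p of 0.103 by limma, and with it the sign turned to 0.23 (adjusted p = 0.869). All 3 probes were thus lower in BTBR on average once the flagged spot was left out, and none passed the test.

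Sgk1 encodes a kinase induced by glucocorticoids and mineralocorticoids that acts on ion channels and transporters. Its probe 1 (A_51_P118237, NM_011361) read 14.39, 14.51, 13.90 and 13.78 in B6 and 14.01, 15.53, 14.34 and 13.78 in BTBR. BTBR 2 alone was above all other mice, and the remaining BTBR values lay inside the B6 range. The difference was 0.27 (interval -0.54 to 1.08, adjusted p = 0.760 by limma), the widest interval of the 15 probes, and it turned to -0.10 without BTBR 2.

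In BTBR 2 the striatum markers (13.47) and the oligodendrocyte markers were also at their highest. The mean over 8 oligodendrocyte markers was 14.42, 14.23, 14.27 and 14.21 in B6 and 14.63, 14.94, 14.13 and 13.90 in BTBR, with 0 of 8 called, 7 higher in BTBR and a summed signal of 370375 to 418796 in B6 and 303184 to 581365 in BTBR. Of the 6 striatum markers tested, 5 were higher in BTBR and 0 were called, with a summed signal of 6474 to 33204 in B6 and 5999 to 107079 in BTBR. Their part in the Sgk1 value was not tested. The probe to another Sgk1 transcript (A_52_P352246, ENSMUST00000143094) was well above background on 0 of 8 arrays, with values from 7.77 to 7.93, and was not tested.

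Tsc22d3, also known as Gilz, encodes a glucocorticoid-induced protein that restrains inflammatory transcription factors. Probe 1 (A_51_P235821, NM_001077364) read 12.86, 13.002, 12.85 and 12.46 in B6 and 13.39, 13.42, 13.06 and 12.69 in BTBR. Probe 2 (A_51_P235816, AF024519) read 12.40, 12.31, 12.23 and 11.93 in B6 and 12.73, 12.79, 12.58 and 12.09 in BTBR. Probe 3 (A_52_P600518, NM_001077364) read 12.15, 12.26, 12.09 and 11.98 in B6 and 12.64, 12.62, 12.43 and 12.11 in BTBR. At each of the 3 probes BTBR 1, 2 and 3 were above all B6 mice, BTBR 4 fell inside the B6 range, and B6 4 was the lowest of the 8.

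The Tsc22d3 differences were alike in size, 0.35 (interval -0.06 to 0.75), 0.33 (-0.04 to 0.70) and 0.33 (0.05 to 0.61), with adjusted p of 0.354, 0.338 and 0.180 by limma. Probe 3 had an unadjusted p of 0.0254 and an exact permutation p of 0.0857. These probes lie close together on the X chromosome and measure the same mice, so they are not independent of each other. Within slide 1 they differed by 0.47, 0.41 and 0.43 and within slide 2 by 0.22, 0.25 and 0.23. Leaving out BTBR 1 gave 0.26, 0.27 and 0.27, and leaving out BTBR 2 gave 0.25, 0.25 and 0.27. Without BTBR 4 probe 3 differed by 0.44 with an adjusted p of 0.0250, the one setting of 24 in which a Tsc22d3 probe was called.

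**Figure D3:**
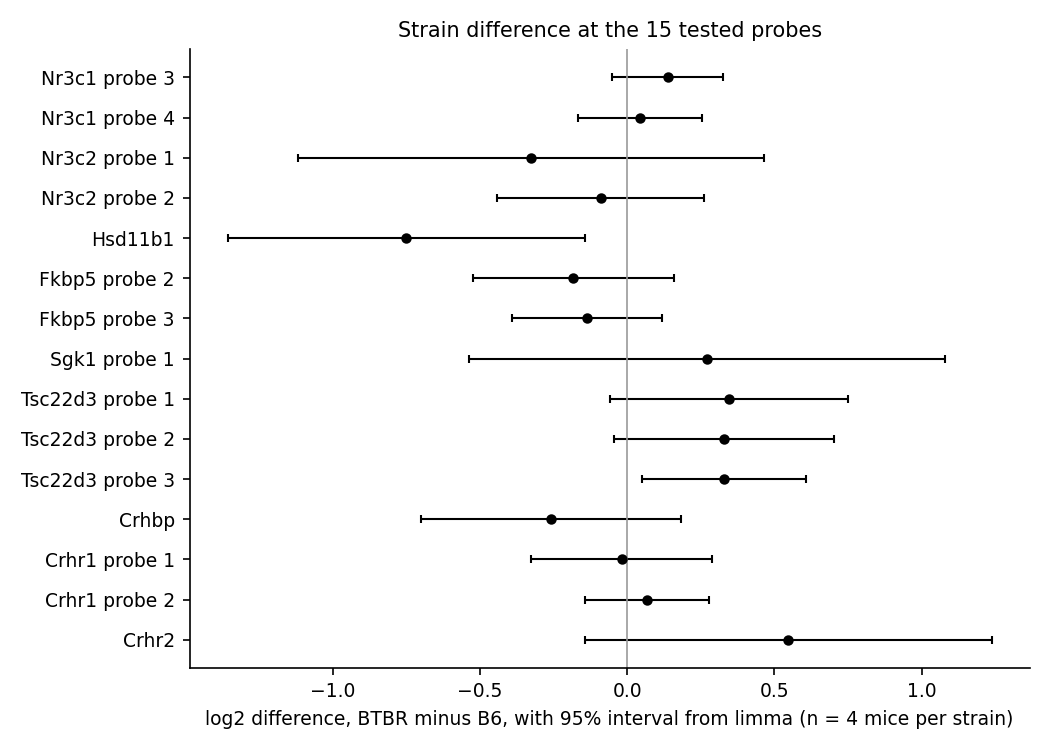
Strain difference (BTBR minus B6, log2 units, x axis) at each of the 15 tested probes, with the 95% interval from limma over 4 mice per strain. Hsd11b1 (-1.36 to -0.14) and Tsc22d3 probe 3 (0.05 to 0.61) are the intervals that leave out 0 before correction, and the intervals of Sgk1, Nr3c2 probe 1 and Crhr2 are the widest.

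Since Fkbp5, Sgk1 and Tsc22d3 answer to the same hormone, their levels were compared between mice after the strain mean was subtracted, at the brightest tested probe of each. For Sgk1 and Tsc22d3 Pearson's r was 0.67 over 8 mice (exact permutation within strains p = 0.149, adjusted over 3 pairs 0.448), Spearman's rho was 0.62 (exact p = 0.212, adjusted 0.625), and r was 0.49 without the 2 mice farthest out. With Fkbp5 the relation was -0.49 for Tsc22d3 (exact p = 0.366, adjusted 0.549, rho -0.43 with exact p = 0.417, adjusted 0.625, r without 2 mice -0.47). Fkbp5 and Sgk1 gave 0.12 (exact p = 0.832, adjusted 0.832, rho 0.14 with exact p = 0.813, adjusted 0.813, r without 2 mice -0.22). None of the 3 pairs passed the test. With the slide mean subtracted as well, r was 0.36 for Sgk1 and Tsc22d3 (exact p = 0.125), 0.084 for Fkbp5 and Tsc22d3 (exact p = 0.875) and 0.85 for Fkbp5 and Sgk1 (exact p = 0.500). Only 16 orders keep strain and slide, so the smallest p possible there is 0.125 and no pair could have passed.

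Crhr1 is the main receptor for CRH in the forebrain and sits on hippocampal principal cells. Probe 1 (A_51_P229163, NM_007762) read 12.73, 13.03, 12.82 and 12.43 in B6 and 12.97, 12.77, 12.58 and 12.63 in BTBR. Probe 2 (A_52_P4910, NM_007762) read 8.95, 9.06, 8.93 and 8.82 in B6 and 9.11, 8.91, 8.83 and 9.17 in BTBR. Strains overlapped at both, with differences of -0.019 (interval -0.33 to 0.29, adjusted p = 0.964 by limma) and 0.067 (interval -0.14 to 0.28, adjusted p = 0.773). These were among the narrower intervals of the set, and at probe 2 the interval leaves room for a difference of up to 0.28.

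Crhr2 is the receptor with high affinity for the urocortins, relatives of CRH, and is also known from the choroid plexus. Its probe (A_51_P399653, NM_009953) read 10.84, 10.92, 10.87 and 10.19 in B6 and 11.83, 11.75, 10.50 and 10.93 in BTBR. The high BTBR values were those of mice 1 and 2, above every B6 mouse, while BTBR 3 lay within the B6 range and BTBR 4 just above it, and B6 4 was below the rest of its strain. The means were 10.71 ± 0.34 in B6 and 11.25 ± 0.64 in BTBR (SD, n = 4 each), a difference of 0.55 (interval -0.14 to 1.24) or 1.46-fold, with an adjusted p of 0.398 by limma and an exact permutation p of 0.200.

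By slide, Crhr2 differed by 0.91 on slide 1 (adjusted p = 0.0542 by limma) and by 0.19 on slide 2 (adjusted p = 0.856). Without BTBR 1 the strain difference was 0.36 and without BTBR 2 it was 0.38. The mean over 8 choroid plexus markers was 10.93, 11.73, 11.78 and 10.36 in B6 and 12.51, 12.42, 10.66 and 10.62 in BTBR. The highest mice were again BTBR 1 and BTBR 2 and the lowest was B6 4, as for Crhr2. All 8 markers were higher in BTBR on average and 0 were called, and their summed signal was 17186 to 48437 in B6 and 19721 to 81138 in BTBR. Ttr, the most typical of them, was well above background on all arrays and Aqp1 on 3 of 4 arrays of each strain. Their part in the Crhr2 difference was not tested.

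Crhbp encodes the secreted protein that binds CRH and keeps it from its receptors, and in the hippocampus it is known from interneurons. The probe (A_52_P460734, NM_198408) read 12.53, 12.51, 12.72 and 12.78 in B6 and 12.21, 11.86, 12.57 and 12.87 in BTBR. Low values were found in BTBR 1 and BTBR 2, below all B6 mice, and BTBR 4 was above them. The difference was -0.26 (interval -0.70 to 0.18, adjusted p = 0.560 by limma), with -0.49 on slide 1 (adjusted p = 0.0881) and -0.030 on slide 2. It was -0.20 without BTBR 1, -0.085 without BTBR 2 and -0.42 without BTBR 4.

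Interneuron markers were read beside Crhbp. The mean over 11 of them was 13.31, 13.56, 13.39 and 13.45 in B6 and 13.73, 13.73, 13.01 and 13.51 in BTBR. Calb2, which is also on the thalamus list, read 13.36 in BTBR 1 and 9.06 to 10.99 in the other mice. Of the 11, 0 were called, 6 were higher and 5 lower in BTBR, their summed signal was 449255 to 489638 in B6 and 429094 to 520172 in BTBR, and all were well above background on every array. Somatostatin (Sst), which marks many Crhbp cells, read 16.15, 16.28, 16.28 and 16.26 in B6 and 16.05, 16.04, 15.39 and 16.02 in BTBR. All BTBR mice were below all B6 mice for Sst, with a difference of -0.37 (adjusted p = 0.211 by limma), or -0.21 without BTBR 3. The GABA synthesis and transport genes Gad1 (0.26), Gad2 (0.42) and Slc32a1 (0.35) and the markers Reln (0.20) and Pvalb (0.18) had differences of the other sign. Without BTBR 2 these were 0.078 (Gad1), 0.13 (Gad2), 0.078 (Slc32a1), 0.14 (Reln) and -0.086 (Pvalb). The part of these cells in the Crhbp values was not tested.

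**Figure D4:**
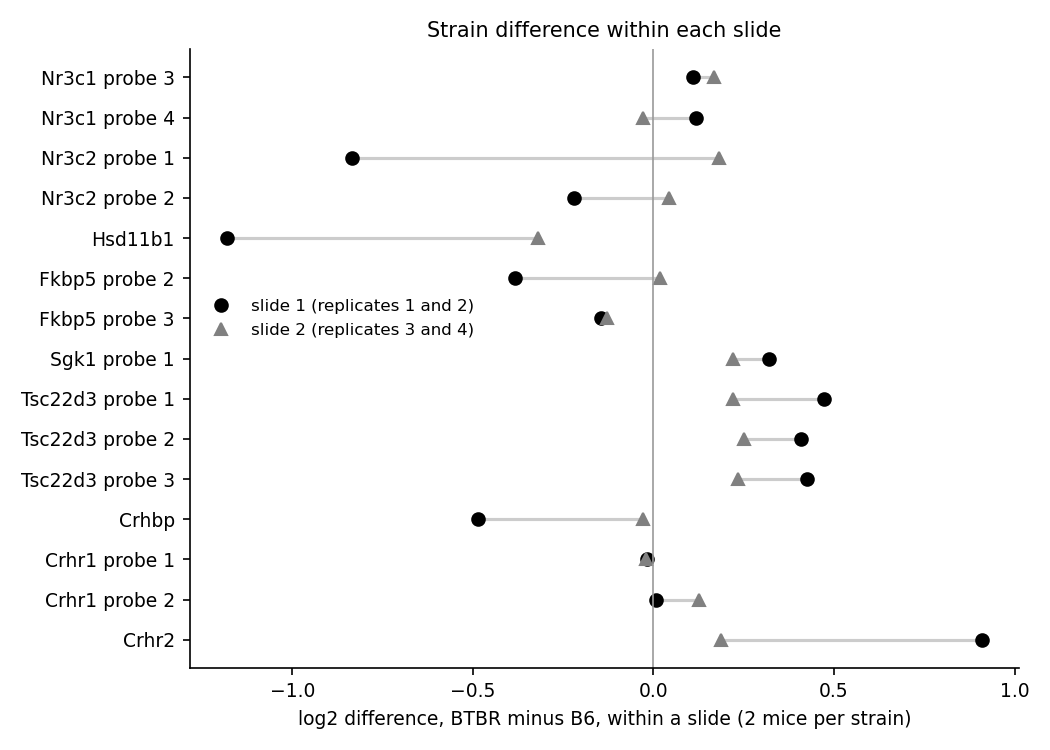
Strain difference (BTBR minus B6, log2 units, x axis) at the 15 tested probes within slide 1 (black circles, replicates 1 and 2) and within slide 2 (gray triangles, replicates 3 and 4), 2 mice per strain on each slide. The circles lie farther from 0 than the triangles at Hsd11b1, Nr3c2 probe 1, Crhr2 and Crhbp, while the Tsc22d3 probes are above 0 on both slides.

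The genes differed in how alike the slides were. At 11 of 15 probes both slides gave the same sign as each other, and the strain difference depended on the slide at an unadjusted p under 0.05 at 2 of the 15 (Nr3c2 probe 1 and Hsd11b1). After correction 0 of the 15 and 0 of all 27981 probes did so, with 2782 of all probes at an unadjusted p under 0.05. With 2 mice per strain on a slide, slide and individual mice cannot be told apart.

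Beyond the 10 genes, lists of the wider pathway were read at the brightest tested probe of each gene, where 7.82% of 18398 genes were called (3.49% higher and 4.33% lower in BTBR) and the median difference was 0.011. Of 19 receptor chaperones and coregulators, among them the heat shock proteins that hold the receptor ready for hormone, all were tested and 0 were called, with a median of 0.011. The 2 at an unadjusted p under 0.05 were Stip1 (0.26, adjusted p = 0.197 by limma) and Fkbp4 (0.21, adjusted p = 0.206), the cochaperone that acts opposite to Fkbp5.

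Of 24 further glucocorticoid-induced genes 22 were on the array and 21 were tested. Zbtb16 and Pck1 had no probe by that name, and Lcn2 was well above background on 0 arrays. One was called higher and 2 lower, with 12 above and 9 below 0 and a median of 0.049. Mt2, a metallothionein that binds zinc and is induced by glucocorticoids and by metals, read 17.78, 17.51, 17.40 and 17.40 in B6 and 17.00, 16.86, 17.03 and 16.99 in BTBR. All BTBR mice were below all B6 mice, and Mt2 fell by 0.55 ± 0.09 (SE, adjusted p = 0.00694 by limma). It was called in 21 of 22 limma alternatives, within slide 2 being the exception (-0.39, adjusted p = 0.154). Astrocytes, which make metallothioneins, had a mean over 7 markers of 14.44, 14.44, 14.54 and 14.51 in B6 and 14.26, 14.25, 14.14 and 14.29 in BTBR. Of the 7 markers 5 were lower in BTBR and 1 was called (Gfap, lower), and the summed signal was 231067 to 247598 in B6 and 175698 to 255172 in BTBR. Means of the strains did not overlap with Gfap included, but without Gfap they did, at 14.56 to 14.63 in B6 and 14.59, 14.58, 14.35 and 14.55 in BTBR 1 to 4. Their part in the metallothionein differences was not tested.

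Its relative Mt1 read 17.39, 17.32, 17.34 and 17.22 in B6 and 16.98, 17.01, 17.05 and 17.10 in BTBR. Strains again did not overlap, with a fall of 0.28 ± 0.06 (SE, adjusted p = 0.0252 by limma). This call was lost in 8 of 22 limma alternatives, with adjusted p up to 0.396, among them each of B6 1, B6 2, B6 3, BTBR 1 and BTBR 2 left out. A second Mt1 probe differed by 0.14 (adjusted p = 0.794), between 0.0078 (without B6 3) and 0.34 (without B6 1). Cross-hybridization between Mt1 and Mt2 was not tested.

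Mfsd2a, a lipid transporter of the blood-brain barrier, read 12.82, 12.90, 13.07 and 12.98 in B6 and 13.18, 13.54, 13.63 and 13.47 in BTBR. Every BTBR mouse was above every B6 mouse, and Mfsd2a rose by 0.51 ± 0.10 (SE, adjusted p = 0.0167 by limma). The call was lost without B6 1 (adjusted p = 0.0552) and without B6 2 (adjusted p = 0.0560) and within each slide, with differences of 0.45 to 0.60 over 22 limma alternatives. Endothelial markers, whose cells make Mfsd2a, had a mean over 7 genes of 11.22, 11.33, 11.48 and 11.20 in B6 and 11.44, 11.54, 11.39 and 11.27 in BTBR. The strains overlapped, with 5 of the 7 higher in BTBR, 0 called, a median difference of 0.11 and a summed signal of 33388 to 42563 in B6 and 34581 to 42011 in BTBR. The part of these cells in the Mfsd2a difference was not tested. At the brightest probes, the rank product rerun here called none of Mt2 (pfp 0.0818), Mt1 (pfp 0.566) and Mfsd2a (pfp 0.0877). Of the pathway lists it called Plin4 (pfp 0.0103) and Cdkn1a (pfp 0.0391) there instead. Other genes of the list did not pass the limma test, such as the lipid droplet protein Plin4 (1.04, adjusted p = 0.0682), the clock gene Per1 (-0.37, adjusted p = 0.388) and the transcription factor Klf9. With 1 mouse left out Per1 lay between -0.50 (without BTBR 1) and -0.21 (without BTBR 4). At its brightest probe Klf9 differed by 0.043 (adjusted p = 0.881), between -0.022 (without BTBR 2) and 0.11 (without BTBR 4). At its other probe (A_51_P412200) it differed by 0.37 (adjusted p = 0.0671), with all BTBR mice above all B6 mice.

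At probes other than the brightest, 2 more genes of the lists were called, named here after their values were seen. Map3k6, a kinase of the stress-activated cascade, rose by 0.89 at 1 probe (A_51_P170807, adjusted p = 0.00869 by limma, and also called by the rank product with a pfp of 0.0099) and differed by -0.52 at its other probe (A_52_P222775, adjusted p = 0.266), so the probes of this gene disagree in sign. Srd5a1, the reductase that inactivates steroids such as corticosterone and makes neurosteroids, was at least 1.33-fold lower in BTBR at A_52_P562612 (adjusted p = 0.00216). That probe was well above background in 3 of 4 B6 and 0 of 4 BTBR mice, so only a bound is given. It sets the B6 mean against a BTBR mean in which each array counts with its own signal at the probe or with its lowest signal called above background, whichever is higher. The bound holds for the scale used here, since fitted differences ran from -2.50 to -0.27 over 21 limma alternatives and the smallest of them, in the deposited matrix, is less than the bound. The call was lost within slide 2 (adjusted p = 0.0606), and the rank product did not make it (pfp 0.0999). At A_51_P420415 the difference was -0.37 (adjusted p = 0.0803).

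Of 11 genes of glucocorticoid metabolism and transport, 10 were on the array (Cyp11b1 had no probe by that name) and 8 were tested, with 0 called at the brightest probe and a median of 0.0053. Hsd11b2, which inactivates corticosterone, and Serpina6, its carrier in blood, were well above background on 0 and 1 of 8 arrays and were not tested. H6pd, which supplies the cofactor of Hsd11b1, differed by -0.11 (adjusted p = 0.619 by limma), between -0.18 (without B6 4) and -0.058 (without BTBR 3). At its other probe (A_52_P83549, adjusted p = 0.616) it differed by 0.51. The latter value came from BTBR 3 at 10.47, against 8.26 to 8.54 in the other 7 mice, and was -0.0075 without it. Of 9 peptides and receptors linked to CRH, 6 were tested and 0 were called, with a median of 0.083. The CRH relatives Ucn, Ucn2 and Ucn3 were well above background on 1, 0 and 0 of 8 arrays. Pomc, the precursor of the pituitary hormone that drives the adrenal, differed by 0.63 (adjusted p = 0.552 by limma). It was 0.30 without BTBR 2 and 1.01 without B6 3. Pituitary markers as a list, of which Pomc is 1, ran from 8.50 to 10.34 in B6 and from 9.37 to 10.55 in BTBR. Pomc was highest in BTBR 2 (12.88) and the list mean in BTBR 4. The part of pituitary tissue in the Pomc value was not tested.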

How the data were processed

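The authors hybridized Cy3-labeled hippocampal RNA of 4 BTBR and 4 B6 mice to Agilent arrays with 45018 spots. Per the file headers, the deposited intensity values and flags came from Feature Extraction 10.7.3.1 (the submitters' processing notes name 9.1). The authors made the deposited log2 matrix of 41267 probes with Agi4x44PreProcess defaults and quantile normalization, and its signal column and offset are not stated. Here, mean intensity minus local background, floored at 0.5, plus an offset of 50, was put on the log2 scale and quantile normalized with limma 3.58.1 in R 4.3.3. Replicate spots took their median. Control probes were dropped, as were 154 probes with an outlier flag, and a probe was tested when well above background on 75% or more of the arrays of a strain. No spot was saturated, and precision is limited by the number of arrays.
Limma fitted strain alone, called Benjamini-Hochberg adjusted p under 0.05, and was tested on simulated data. Exact permutations were two-sided, over 70 splits of the arrays for a probe and 576 orders within strains for a relation (16 within strain and slide). The labels do not name litters, so p-values measure the spread between these samples. The strain background label of the BTBR samples reads C57BL/6J, while their title, source and genotype read BTBR.
All 10 genes were named with every probe, and from each list the genes called at the brightest probe (at most 3 per direction) and those not measured. Other list genes were picked with their values in view. The members and lists were chosen with earlier results of these data known. Marker lists of CA1, CA2, CA3, dentate, interneuron, astrocyte, microglia, oligodendrocyte, endothelial, choroid plexus, meninges, pituitary, hypothalamus, thalamus and striatum genes were written from general knowledge. Alternatives were other background corrections, scalings, offsets and filters, the deposited matrix, medians over probes, single arrays left out, replicate or slide as a block, each slide alone, trend and robust options, and the rank product of the study (100 permutations, pfp of 0.05 or less). Setting flagged spots to missing was added after seeing the data. Probe coordinates are those of mm9.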

Additional observations from a re-analysis of the deposited data

Results flagged for a closer look

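Each of the 20 probes was checked in both strains for 1 mouse that lies apart from the other 3 of its strain by Dixon's test, 40 groups in all, of which chance alone flags about 1 in 20. For 3 groups the test was passed. Nr3c2 probe 1 was 8.84 in B6 2, against 9.37 to 9.46 in the other B6 mice. Crhr2 was 10.19 in B6 4, against 10.84 to 10.92 in the other B6 mice. Fkbp5 probe 1 was 11.75 in BTBR 3, against 9.08 to 9.53 in the other BTBR mice, and Feature Extraction had already marked this spot as an outlier.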

How the results depend on the processing

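Over 24 alternatives the 15 probes gave 359 values, of which 343 kept their sign and their side of the threshold. With 1 mouse left out, differences near 0 turned their sign and ran from -0.13 (without B6 4) to 0.075 (without B6 2) for Crhr1 probe 1, from -0.024 (without BTBR 1) to 0.095 for Nr3c1 probe 4, from -0.19 to 0.032 (without BTBR 1) for Nr3c2 probe 2, and from -0.10 (without BTBR 2) to 0.48 for Sgk1. Without 1 mouse Nr3c1 probe 3 also came to 0.075 (without BTBR 3), Fkbp5 probe 2 to -0.28 (without BTBR 3) and Crhr1 probe 2 to between 0.014 (without BTBR 4) and 0.13 (without BTBR 3). As the median over its probes Crhr1 was at 0.024. With processed signals scaled to the 75th percentile, 7 probes moved by over 1.5 times with their sign kept, to 0.22 (Nr3c1 probe 3), 0.31 (Nr3c1 probe 4), -0.65 (Nr3c2 probe 1), -0.14 (Nr3c2 probe 2), -0.25 (Fkbp5 probe 3), -0.037 (Crhr1 probe 1) and 0.14 (Crhr1 probe 2). Nr3c1 probe 4 was at 0.029 in the deposited matrix and Crhr1 probe 1 at -0.076 with median centering, and medians over probes were 0.091 for Nr3c1 and -0.21 for Nr3c2. Fkbp5 probe 2 was at -0.38 within slide 1. Within slide 2, Nr3c1 probe 4 was at -0.028, Nr3c2 probe 1 at 0.18, Nr3c2 probe 2 at 0.042 and Fkbp5 probe 2 at 0.017. With slide means subtracted, r of Fkbp5 and Tsc22d3 was 0.084. The count of called stress axis probes was 0 to 1 with 1 mouse left out (Tsc22d3 probe 3 without BTBR 4), 1 within slide 1 and 1 by the rank product (both Hsd11b1). Called genes of the pathway lists, 3 in the main test, numbered 1 to 5 with 1 mouse left out (1 without B6 1, 5 without BTBR 3) and 0 within slide 2. At the brightest probes the rank product called 2 genes of these lists, Plin4 and Cdkn1a, neither of which limma called. The cause of these changes was not tested.
Whether the replicate numbers pair the mice cannot be decided from 4 correlations. Same-numbered mice correlated at -0.14, 0.51, -0.10 and 0.39, and replicates 2 and 4 matched their own number best while 1 and 3 did not. With the replicate block 0 of the 15 probes and 5.90% of all probes were called. With 4 mice per strain, standard errors were 0.36 at Sgk1 probe 1, 0.35 at Nr3c2 probe 1 and 0.30 at Crhr2. The lack of a call there does not show the lack of a difference, and the size that could be detected was not tested.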

Other observations

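Of 101 marker genes tested over all lists, 4 were called at their brightest probe, where 7.82% of all genes were called. Gfap, an astrocyte filament protein, read 13.73, 13.54, 14.02 and 14.03 in B6 and 12.24, 12.28, 12.88 and 12.70 in BTBR, and fell by 1.30 ± 0.17 (SE, adjusted p = 0.00143 by limma), while 0 of the other 6 astrocyte markers were called. Among 8 microglia markers, the chemokine receptor Cx3cr1 rose by 1.41 at A_52_P99810 (adjusted p = 1.11e-05) and differed by -0.096 at A_51_P350853 (adjusted p = 0.669). The latter lay between -0.16 (without BTBR 3) and -0.029 (without B6 1). The complement subunit C1qb and the integrin Itgam fell by 1.01 (adjusted p = 0.000602) and 0.40 (adjusted p = 0.0127). A second Itgam probe (A_52_P669155) differed by -0.050 (adjusted p = 0.923), between -0.25 (without BTBR 3) and 0.039 (without BTBR 4). In the CA2, CA3, meninges, hypothalamus, thalamus and pituitary lists 0 genes were called at the brightest probe. Not tested were Cdh24 and Iyd (CA3), Pou1f1 (pituitary) and Sim1 and Otp (hypothalamus), well above background on 3, 0, 0, 0 and 0 of 8 arrays, and Penk1 (striatum) had no probe by that name. At another probe Igf2, a growth factor made in the meninges, rose by 1.24 (adjusted p = 0.0333 by limma).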
